A study of Mus musculus with 2 samples.

Results

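The cytosolic ribosomal protein genes encode the protein parts of the large (Rpl) and small (Rps) subunit of the ribosome outside mitochondria. They were taken by symbol: every gene whose name starts with Rpl or Rps and a digit, with Rplp0, Rplp1, Rplp2 and Rpsa, and without the Rps6 kinase genes and the rows named as pseudogenes. This gave 86 of the 32285 genes. One of them, Rps19bp1, encodes a protein that binds a ribosomal protein and is no part of the ribosome itself; Fau and Rack1, whose products do sit on the ribosome, do not match the rule. The rule uses names and no measured value, although the genes were picked for description with earlier results of these data known.

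The cells came from optic nerves of Nf1-OPG mice, a model of optic pathway glioma. These mice carry a germline Nf1 allele inactivated by a neomycin cassette together with a floxed Nf1 allele and Cre driven by the GFAP promoter, so Nf1 is lost in the GFAP lineage and all other cells stay heterozygous. The nerves of 10 mice at 12 weeks were pooled for each of the 2 libraries, 1 from mice given anti-PD-1 (anti-PDCD1) and 1 from mice given anti-TIGIT, and live cells were sorted; the sort is described for dural cell suspensions. With 1 library per treatment there is no replicate: no test was possible, every interval below is a 95% interval that covers counting error only, and treatment, pool and library cannot be told apart. No untreated library was analysed here.

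Ribosomal protein mRNAs are among the most abundant messages of a cell, and each ribosome needs a single copy of nearly every one of their proteins. In vertebrates they belong to the TOP mRNAs, which begin with a C followed by an unbroken run of pyrimidines; Larp1 binds this start, and mTOR signalling sets through it how much of the message is translated. Resting lymphocytes are known to keep part of these mRNAs untranslated until they are activated.

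The start of the transcript is the shared regulatory element of the family and is also the end that a 5′ library captures, so it is shown for members on which the results turn. RefSeq start windows on GRCm38.p6 matched 66 of the 86 members. Each line gives 15 bases before and 15 bases from the annotated start, 5′ to 3′, and capitals mark the longest run of at least 5 bases that opens with C and holds only C and T. Rps24 and Rps27l have a further annotated start, without such a run, that is not printed. The annotated genes of Rpl5, Rpl7a, Rpl38, Rps2 and Rps27l begin before the printed window, that of Rpl5 at position 107900508. An earlier start of these genes is therefore not covered.
Rps6 (chr4:86857353-86857382, minus strand): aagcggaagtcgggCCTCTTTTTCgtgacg
Rpl7a (chr2:26910792-26910821, plus strand): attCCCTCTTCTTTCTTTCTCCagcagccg
Rpl13a (chr7:45128731-45128760, minus strand): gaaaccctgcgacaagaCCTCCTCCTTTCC
Rps15a (chr7:118116133-118116162, minus strand): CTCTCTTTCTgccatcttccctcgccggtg
Rps27 (chr3:90213634-90213663, minus strand): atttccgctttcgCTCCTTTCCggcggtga
Rps24 (chr14:24490663-24490692, plus strand): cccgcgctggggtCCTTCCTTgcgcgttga
Rpl38 (chr11:114668565-114668594, plus strand): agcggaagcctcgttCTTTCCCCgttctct
Rpl22l1 (chr3:28805493-28805522, plus strand): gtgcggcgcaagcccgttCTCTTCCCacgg
Rps27l (chr9:66946071-66946100, plus strand): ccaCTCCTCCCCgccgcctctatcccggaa
Rps2 (chr17:24720048-24720077, plus strand): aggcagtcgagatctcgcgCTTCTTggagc
Rpl5 (chr5:107900513-107900542, plus strand): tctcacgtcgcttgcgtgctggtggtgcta
Rps15 (chr10:80292416-80292445, plus strand): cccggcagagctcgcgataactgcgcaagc

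The run was sought anywhere in the 30 bases. It reached 19 bases in Rpl7a and 10 bases in Rps6 and Rps15a, and Rpl5 and Rps15 had none in their windows. In Rps15a and Rps27l the marked run lay wholly before the annotated start, so such a run is not by itself a TOP start. Leaving out Rps19bp1, 43 of 65 matched members (66.2%) held such a run, against 40.3% of the 27025 genes of the table. The shorter word CTTTC, read on the sense strand within 50 bases of the start, was present in 34 of the 65 (52.3%) and in 14.6% of all genes. CGGAAG on either strand of the 300-base promoter window was present in 66.2% of the members and 18.8% of all genes, whereas CCAAT was present in 30.8% of the members and 41.1% of all genes. Members without an entry included Rpl3, Rpl7, Rpl8, Rpl17, Rpl21, Rpl23a, Rpl29, Rpl30, Rpl32, Rpl36, Rplp1, Rps14, Rps20, Rps27a and Rps29.

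The libraries held 13267 and 7503 retained cells (anti-PD-1 and anti-TIGIT) with median depths of 4460 and 4126 UMIs, a UMI being 1 captured mRNA molecule. Marker gates placed 73.8% and 76.8% of them in a class, and the 12 classes that reached 100 cells in both were compared. The libraries shared 163 cell barcodes (1.16% and 2.06% of their barcodes). Gene levels are given as CPM, UMIs scaled to 1000000 UMIs of the class or library; since 1 UMI is 1 molecule they were not divided by length. Many members have near-identical processed copies in the genome whose reads are lost or split in counting, so an absolute level of a single member is uncertain; the 5 rows named as pseudogenes held 1.47% and 1.45% as many UMIs as the members.

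Summed over the 86 members, ribosomal protein mRNAs made up 13.8% of retained UMIs in the anti-PD-1 library and 12.0% in the anti-TIGIT library. The 10 members with most UMIs were Rps24, Rpl13, Rplp1, Rps15a, Rpl37a, Rps9, Rps29, Rps20, Rpl39 and Rpsa. Rps24, needed to mature the RNA of the small subunit, had 3926 and 3388 CPM over all retained cells, and Rpl13 had 3564 and 3007 CPM. Rplp1, part of the stalk that receives elongation factors, was the only one of the 10 that was lower in the anti-PD-1 library, with 2770 against 3158 CPM. Rpl10l, a testis copy of Rpl10, had no UMI in either library.

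The share of UMIs given to ribosomal proteins separated the cell classes in nearly the same order in both libraries. Lymphocytes and dendritic cells stood highest, macrophages and fibroblasts in the middle, and the oligodendrocyte lineage and plasma cells lowest. In B cells the share was 27.2% (anti-PD-1; interval 27.1 to 27.3) and 26.3% (anti-TIGIT; 26.2 to 26.5), and in CD8 T cells 26.7% in both libraries. Type 2 conventional dendritic cells (cDC2) had 23.6% and 21.8%, T cells not placed in a finer class ("other T") 23.33% and 24.98%, type 1 dendritic cells (cDC1) 22.7% and 21.7%, and CD4 T cells 22.0% and 23.2%. These 4 classes lay within 2 percentage points of each other in anti-PD-1, and their order was not the same in the 2 libraries.

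Macrophages of the brain's borders (meninges, vessels) came after these with 16.3% and 14.7%, then microglia with 14.2% and 11.6% and fibroblasts with 13.6% and 11.7%. Oligodendrocyte precursor cells (OPCs) had 9.48% and 6.12%. Oligodendrocytes, whose UMIs are dominated by myelin messages, had the lowest share of the 12 classes, 4.48% (4.47 to 4.49) and 3.85% (3.84 to 3.86). On the log2 scale CD8 T cells lay 2.58 above oligodendrocytes in anti-PD-1 and 2.79 above them in anti-TIGIT. Plasma cells had 6.78% and 5.69%, but immunoglobulin messages took 62.8% and 66.9% of their UMIs. Without immunoglobulin and mitochondrial UMIs the plasma cell share was 18.6% and 17.6%, between those of dendritic cells and border macrophages.

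**Figure D1:**
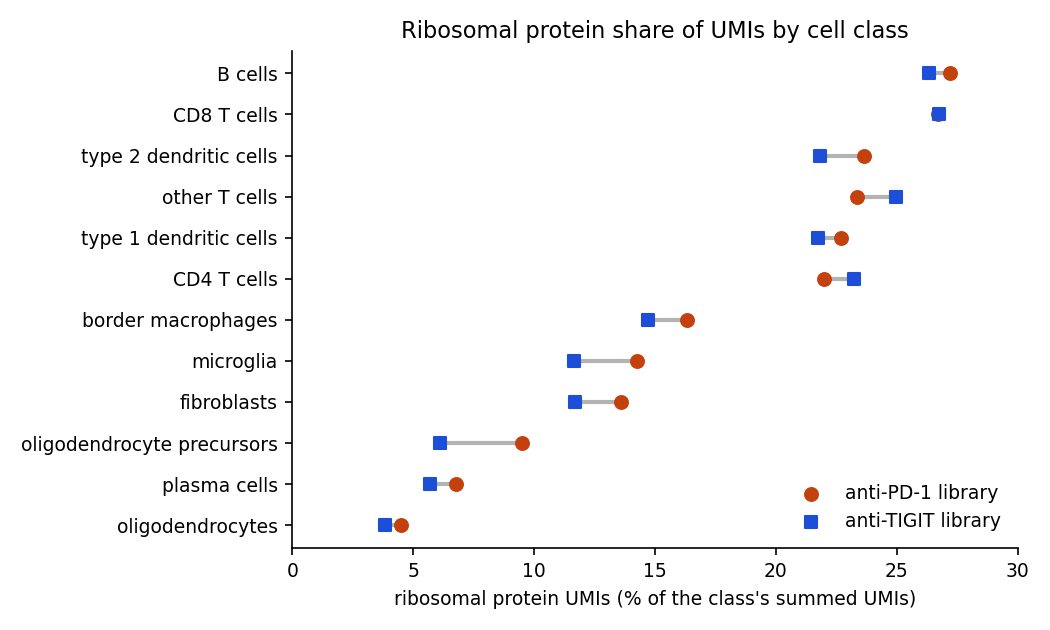
Ribosomal protein share of the summed UMIs of each of the 12 compared classes (x axis, percent), with 1 point per library; grey lines join the 2 libraries of a class. B cells and CD8 T cells lie above 26% in both libraries and oligodendrocytes below 5%, and OPCs show the widest gap relative to their level, 9.48% against 6.12%.

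Classes with fewer cells are given as values only. Group 2 innate lymphoid cells had 31.0% (65 cells) and 29.0% (28 cells), the highest share seen. NK cells had 22.5% and 22.9%, regulatory T cells 20.2% and 19.3%, and monocytes 20.2% and 19.4%. Neutrophils had 2.59% in anti-TIGIT (38 cells), below oligodendrocytes. Cells that no gate took had 15.6% and 16.6%.

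Classes were also split by single genes or small sets of genes chosen after the data were seen. CD8 T cells with a UMI of Pdcd1, the gene for PD-1, had 25.97% and 25.32%, against 29.7% and 27.8% in those without. CD8 T cells with Tcf7, a factor of naive and stem-like T cells, had 28.8% and 28.5%, against 25.9% and 25.8% without. Cycling CD8 T cells had 24.6% and 23.1%, against 27.0% and 27.3% in the rest, at median depths of 10061 and 8913 UMIs against 3736 and 3016. A UMI of a marker is found more often in deep cells, and the part of depth in these splits was not tested.

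In microglia, cells with H2-Ab1, an MHC class II gene, had 14.5% and 12.9%, against 11.7% and 10.4% without it. OPCs with B2m, the light chain of MHC class I, had 9.75% and 6.53%, against 7.07% and 5.53% without. Border macrophages with Lyve1 had 15.6% and 14.4%, below the 17.5% and 15.3% of those without. Plasma cells were split by whether UMIs of Igha, the IgA heavy chain, outnumbered those of the IgG and IgM heavy chains together. Those where they did had 7.14% and 6.19%, against 6.49% and 5.21% in the rest. OPCs with and without Gpr17, a marker of committed precursors, differed in opposite directions between the libraries, as did splits of CD8 T cells by Gzmk and oligodendrocytes by Opalin. In CD4 T cells the summed share of cycling cells (20 and 12 cells) also went opposite ways, while their median cell was below that of the rest in both libraries (20.4% against 22.2%, and 17.7% against 22.7%). The OPC values were 8.73% with and 10.1% without in anti-PD-1, and 6.41% with and 5.67% without in anti-TIGIT.

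The mixture of members differed between classes, by an amount that varied from member to member. Of the 61 members with at least 200 UMIs in every class and library, the median log2 range of a member's share of the ribosomal protein UMIs across the 12 classes was 0.57 in anti-PD-1 and 0.65 in anti-TIGIT. For 7 of the 61 it was above 1 in both libraries. The class with the highest share was the same in both libraries for 43 of the 61, and the class with the lowest for 37. Among members left out for fewer UMIs, the smaller of the 2 libraries' ranges was 2.60 in Rpl22l1, 2.52 in Rps27l and 0.33 in Rpl36a.

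Of the 7, Rps24 was highest in plasma cells, at 4.86% and 4.24%, and lowest in OPCs, at 1.72% and 1.59%. Rpl41, the shortest ribosomal protein, whose range was just under 1 in anti-PD-1, was highest in plasma cells as well, at 1.02% and 0.983%, with fibroblasts, OPCs and oligodendrocytes also above all immune classes but plasma cells.

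Rps27 and Rps29, zinc-binding proteins of the small subunit, and Rps15a followed different cell types. Rps27 was highest in B cells (2.82% and 2.26%) and lowest in OPCs (1.25% and 1.06%). Rps29 was highest in border macrophages (3.56% and 2.80%), with microglia next in both libraries. Rps15a was highest in CD8 T cells (3.49% and 2.61%) and lowest in oligodendrocytes (1.53% and 1.25%). Each of these patterns held in both libraries although all 3 genes took a larger part of the ribosomal protein UMIs in anti-PD-1. Rpl10, which joins the large subunit late and lies near the catalytic centre, was lowest in CD8 T cells (0.366% and 0.511%); its highest class was plasma cells in anti-PD-1 (0.839%) and border macrophages in anti-TIGIT (1.18%).

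**Figure D2:**
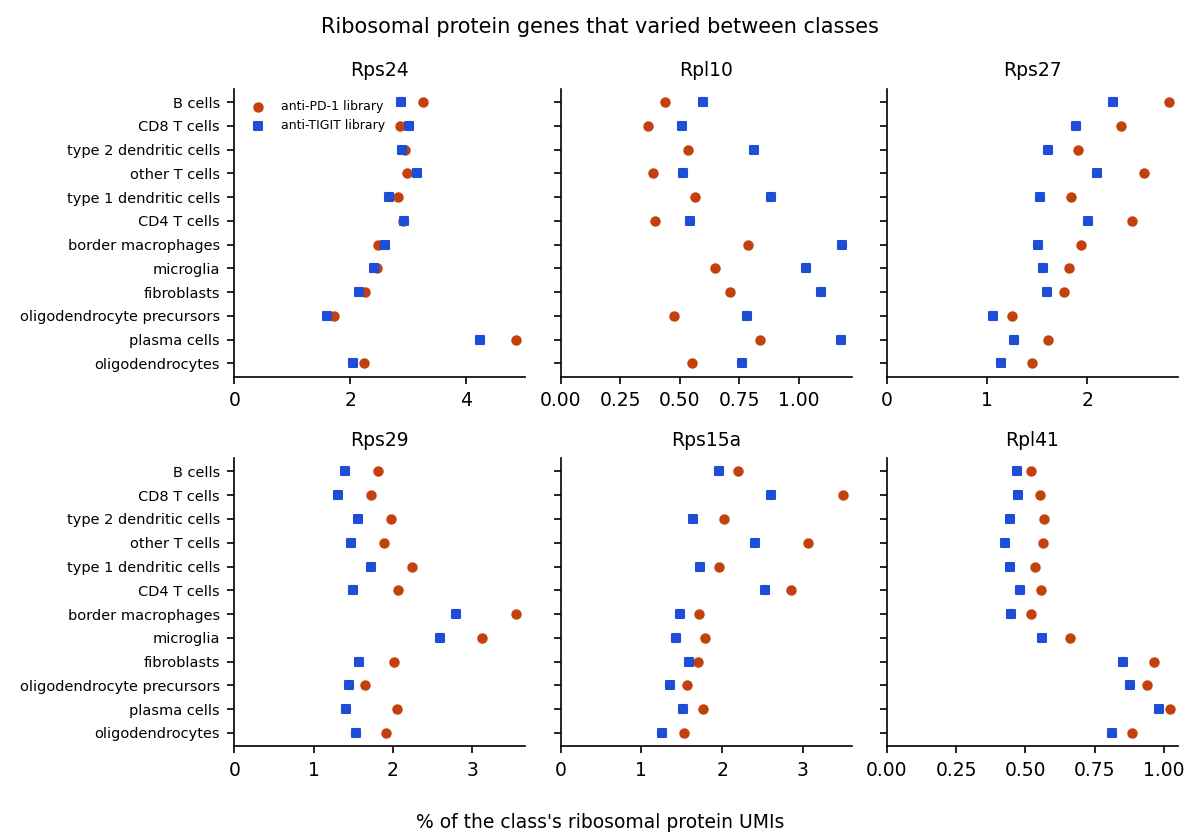
Share of the class's ribosomal protein UMIs (x axis, percent) taken by 6 of the members that varied most between classes; each row of a panel is a class, with 1 point per library. Rps24 is highest in plasma cells, Rps29 in border macrophages and microglia, and Rps15a in CD8 T cells, in both libraries.

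Between the libraries, the ribosomal protein share was higher in anti-PD-1 in 9 of the 12 classes and lower in 2. On the summed UMIs the widest difference was in OPCs, where anti-PD-1 divided by anti-TIGIT gave a log2 ratio of 0.63 (0.61 to 0.65). Microglia followed with 0.29 (0.28 to 0.30), then plasma cells with 0.25, fibroblasts and oligodendrocytes with 0.22 each, border macrophages with 0.15, cDC2 with 0.11, cDC1 with 0.06 and B cells with 0.05. In CD8 T cells the shares were 26.7% in both and the interval of the ratio held 0, but the makeup of the class differed: 1122 of 1463 cells had a Pdcd1 UMI in anti-PD-1 and 189 of 596 in anti-TIGIT. The ratio was 0.04 in CD8 T cells with Pdcd1 and 0.10 in those without, and -0.07 by the median cell of the whole class. CD4 T cells (-0.08) and other T cells (-0.10) were lower in anti-PD-1; in CD4 T cells the ratio was -0.04 by the median cell and -0.13 without cycling cells. By the median cell the ratio was 0.58 in plasma cells and 0.48 in OPCs, so OPCs were not the widest by that measure. The OPC class held 682 cells in anti-PD-1 and 102 in anti-TIGIT, and its ratio was 0.47 in Xist-positive cells. The spread between mice is unknown. The smaller ratios moved with the way of counting: with cells of 2000 to 8000 UMIs cDC2 and B cells had 0.008 each, cDC1 -0.047 and plasma cells 1.03, and without immunoglobulin and mitochondrial UMIs plasma cells had 0.08. In oligodendrocytes the ratio was 0.47 in thinned cells and 0.08 in Xist-positive cells, and in other T cells it was -0.22 in Xist-positive and -0.02 in Y-positive cells.

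Depth and cell makeup differed between the libraries too. Median depth was 5638 against 4136 UMIs in OPCs and 5764 against 3619 in microglia, while it was 6265 against 6154 in oligodendrocytes. In cDC1, where the share ratio was 0.06, it was 9908 against 7019 UMIs. In CD8 T cells, where the interval of the ratio held 0, it was 3836 against 3097. Median depth was 2856 against 2276 in other T cells (ratio -0.10) and 13741 against 15592 in plasma cells (0.25). The relation of depth to the share ratio was not tested. With cells thinned to 1000 UMIs the log2 ratios were 0.62 in OPCs and 0.39 in microglia, and with cells of 2000 to 8000 UMIs they were 0.52 and 0.24. In microglia with H2-Ab1 the ratio was 0.16 and in microglia without it 0.17, both lower than the ratio of the whole class; 1043 of 1220 microglia had a UMI of the gene in anti-PD-1 and 211 of 458 in anti-TIGIT. In OPCs the ratio was 0.58 with B2m and 0.35 without, 0.45 with Gpr17 and 0.83 without, and 0.64 without cycling cells.

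Messages of other cells also differed. In OPCs the summed level of 8 OPC markers was 9745 CPM in anti-PD-1 and 11882 in anti-TIGIT, that of 6 cycling genes 250 and 105 CPM, with all 6 higher in anti-PD-1, and that of 9 T cell markers 26.4 and 14.4 CPM, with 1 and 5 of the 9 at 0. In microglia the 8 microglial markers summed to 7616 and 11711 CPM, all 8 lower in anti-PD-1, and 8 border macrophage markers to 55.6 and 332 CPM, with 1 of the 8 higher in anti-PD-1. In oligodendrocytes 9 T cell markers summed to 64.2 and 7.4 CPM and 7 plasma cell markers to 619.6 and 123.9 CPM. In CD4 T cells 4 regulatory T cell markers summed to 2018 and 1264 CPM, 7 plasma cell markers to 954 and 242 CPM and 7 B cell markers to 78.6 and 4.29 CPM. In other T cells the regulatory T cell markers summed to 2191 and 1091 CPM, all 4 higher in anti-PD-1, and the plasma cell markers to 854 and 222 CPM. The part of these messages in the ribosomal protein ratios was not tested.

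For single members, the log2 ratio of (CPM + 5) was taken for those with at least 50 UMIs in a class over both libraries, and a member was counted as higher or lower at 1.5-fold; this is a threshold of size, not a test. In OPCs 49 of 82 members measured were higher in anti-PD-1, where 8.96% of all 9635 genes were, and none was lower, where 13.6% of all genes were. The median of the members was 0.63 and that of all genes -0.12, and 79 of 82 members had a ratio above 0. Relative to the median of all genes 59 members passed the threshold. In Xist-positive cells alone 22 passed, and at a threshold of 2-fold 3 did; most members in OPCs moved by less than that. The share of all genes was not computed under these other settings, so these counts have no background beside them.

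In microglia 11 of 83 members were higher (4.16% of all genes) and 3 lower (11.9%), with medians of 0.26 for the members and -0.19 for all genes. Relative to that median 21 were higher, and in Xist-positive cells 7, with no share of all genes computed for either. In plasma cells 10 of 83 were higher (7.89% of all genes) and 2 lower (1.85%). In both classes a larger share of the members than of all genes was higher. Fibroblasts had 5 of 82 higher (5.07%) and 1 lower (6.52%), border macrophages 4 and 4 of 82 (2.66% and 7.35%), and oligodendrocytes 3 and 0 of 83 (5.54% and 0.783%). In these 3 classes at most 5 members passed in a direction, while the member medians of 0.20, 0.13 and 0.21 lay above those of all genes (-0.04, -0.05 and -0.02).

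In lymphocytes and dendritic cells few members passed the threshold. B cells had 2 of 82 higher (7.59% of all genes) and 7 lower (9.87%), CD8 T cells 2 and 7 of 83 (5.63% and 3.94%), CD4 T cells 1 and 7 (6.26% and 4.11%), other T cells 1 and 9 (8.03% and 3.7%), cDC1 1 and 5 (4.77% and 7.5%) and cDC2 2 and 5 (4.19% and 6.6%). The share of members that were lower exceeded that of all genes in the 3 T cell classes and did not in B cells, cDC1 and cDC2. The median of the members was 0.00 in CD8 T cells, -0.09 in CD4 T cells and -0.07 in other T cells, with all-gene medians between -0.02 and 0.03.

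**Figure D3:**
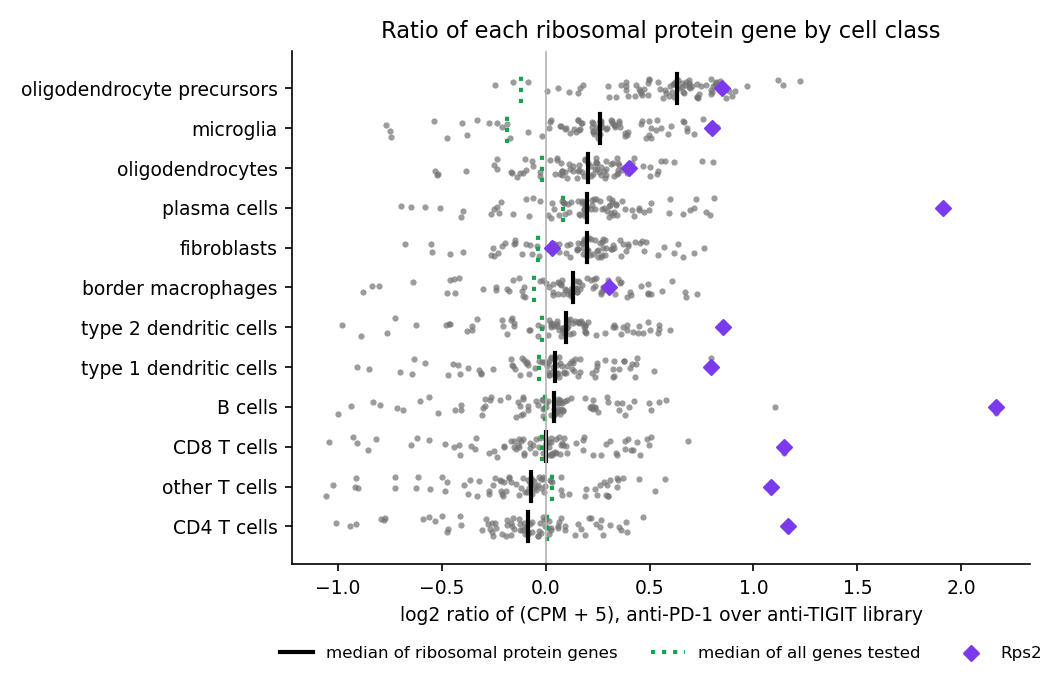
Log2 ratio of (CPM + 5), anti-PD-1 over anti-TIGIT (x axis), of every member with at least 50 UMIs in a class; each grey point is a gene, black bars are the members' medians and green dotted bars the medians of all genes. In OPCs nearly the whole family lies right of 0 with a median of 0.63, and Rps2 (purple) lies apart from the rest in B cells and plasma cells.

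The same members led and trailed in class after class. When each member is given as a share of the summed ribosomal protein UMIs, which takes out the shift of the whole family, 18 of the 81 members measured in all 12 classes were above 0 in every class and 24 were below 0 in every class. How many genes outside the family kept the same sign in every class was not computed, so these counts have no background beside them. The 12 classes share 2 libraries, so they are not independent. The mice and the Cell Ranger version (8.0.0 and 8.0.1) differ between the libraries along with the antibody. Among the 18 that took a larger share in anti-PD-1 were Rps28, Rpl39, Rpl37a, Rpl37, Rpl38, Rps29, Rpl36, Rps27, Rpl35a, Rps26, Rps15a, Rpl35, Rpl41, Rpl36al, Rps21, Rpl11 and Rpl30. Among the 24 that took a smaller share were Rps15, Rpl5, Rpl23a, Rpl13a, Rpl12, Rps25, Rps6, Rpl10, Rpl17, Rps14, Rplp1, Rps12, Rpl4, Rpl14, Rpl7, Rps16, Rpl7a, Rplp2, Rpl26, Rps23, Rpl21, Rps7 and Rpl23. Both subunits were present in both groups: 11 large and 7 small subunit genes in the first, and 15 and 9 in the second.

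Rps28, a short protein of the small subunit, had the highest median of the first group, with a log2 ratio of its share of 0.52 over the 12 classes (0.36 to 0.60). In OPCs it had 1455 CPM in anti-PD-1 and 621 in anti-TIGIT, in microglia its log2 ratio of (CPM + 5) was 0.76, and in other T cells, the lowest of the 12 classes, it was 0.34. Rpl39, which lines the exit tunnel of the large subunit, was close behind at 0.48, and had 3280 and 1847 CPM in microglia. Rpl38, a large subunit protein known from the mouse Tail short mutation, had 0.37 and 1552 against 945 CPM in fibroblasts.

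Rps15, needed for nuclear export of the small subunit's precursor, had the lowest median at -0.94 (-1.07 to -0.62). Its level in CD8 T cells was 593 CPM (anti-PD-1) and 1227 CPM (anti-TIGIT), 315 and 539 CPM in microglia, and a ratio of 0.01 in OPCs. Rpl5, which carries the 5S RNA and binds Mdm2 together with Rpl11, had -0.91 (-1.10 to -0.76), with 526 and 1041 CPM in cDC2; its partner Rpl11 was in the opposite group at 0.12. Rpl23a, at the exit of the tunnel where the signal recognition particle docks, had -0.82, and Rpl13a, known as well as a regulator of inflammatory mRNAs, had -0.78, with 2210 and 4209 CPM in CD8 T cells. Both Rpl13a and Rpl5 were lower in anti-PD-1 in all 12 classes on the CPM scale as well, OPCs included (-0.25 and -0.16), whereas Rps15 was not; with Y-linked cells alone Rpl5 stood at 0.007 in OPCs.

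Proteins that work as a unit did not share 1 ratio. Of the stalk, Rplp0, its base, had a median of 0.04 within the family, Rplp1 -0.43 and Rplp2 -0.23, and the log2 ratios of (CPM + 5) in OPCs were 0.91, 0.34 and 0.45. Rps6, the substrate of the S6 kinases, had -0.57 within the family; on the CPM scale it was 0.47 in OPCs and between -0.73 and -0.23 in the other 11 classes.

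Coding length was lower in the group that rose within the family. The 18 members above 0 in every class had a median coding length of 303 bases (138 to 534), the 24 below had 474 bases (342 to 1257), and the 39 others 564. Of the 81 members measured in every class, all 9 of at most 300 coding bases had a median ratio above 0, against 22 of 48 between 300 and 600 and 9 of 24 above. Spearman's rho of coding length with the median ratio within the family was -0.44 across the 81 members, a description across genes that share libraries. In each class rho was taken with the log2 ratio of (CPM + 5) over 82 or 83 members. It was negative in each of the 12 classes, from -0.48 in microglia to -0.32 in OPCs. Genes outside the family showed a fall with length as well: in CD8 T cells the median log2 ratio of (CPM + 5) was 0.21 for 201 other genes of at most 300 coding bases and -0.13 for 1830 above 2400, and in OPCs 0.18 and -0.29. Members of like length could still differ: Rps15 (435 bases), Rpl23a (468) and Rps25 (375) lay far below Rps15a (390) and Rps24 (399).

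The start sequences were then set beside these groups. Of the members with a start window, some had a C-led pyrimidine run anywhere in the window, before or after the annotated start. These were 8 of 14 of those above 0 in every class, 11 of 17 of those below and 20 of 30 of the others. Rpl5 and Rps15, which had no run in the windows printed above, stood at the low end beside Rpl13a, with a run of 13 bases. The annotated gene of Rpl5 begins before its window, so a run at an earlier start of Rpl5 was not looked for.

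**Figure D4:**
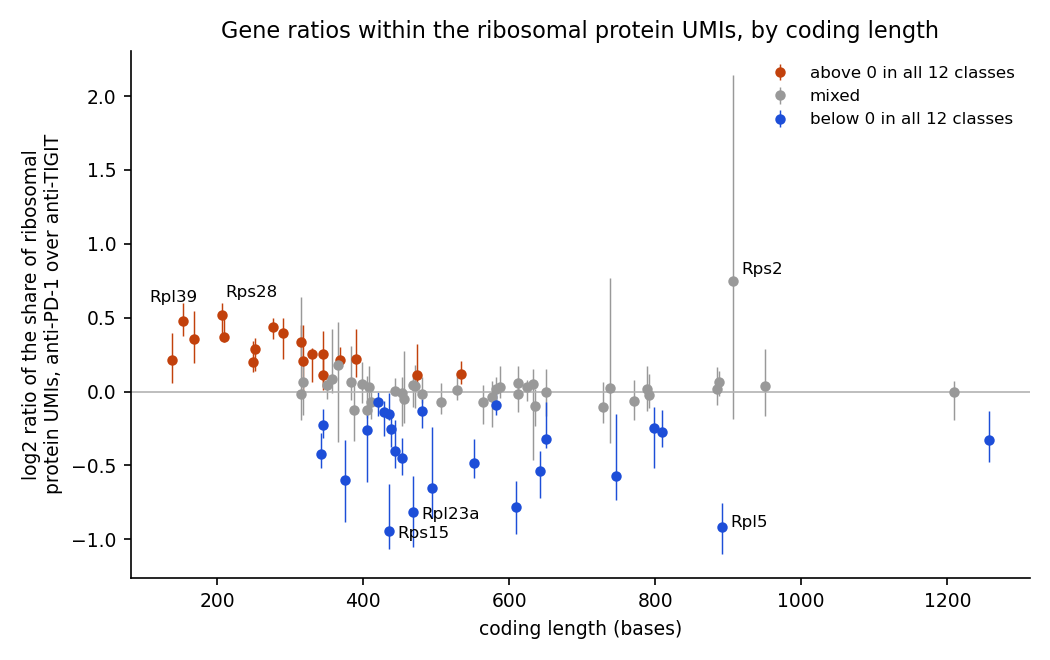
Log2 ratio, anti-PD-1 over anti-TIGIT, of a member's share of the ribosomal protein UMIs (y axis) against its coding length in bases (x axis); points are medians over the 12 classes, bars run from the lowest to the highest class, and colours give the members above 0 in every class (orange), below 0 in every class (blue) or mixed (grey). Only the 81 members measured in every class are drawn; the 9 of at most 300 bases lie above 0, and Rps2 has a bar that reaches 2.14.

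Rps2, a small subunit protein near the mRNA entry, had the highest ratio of the family in 7 classes. In B cells it had 1114 CPM in anti-PD-1 and 244 in anti-TIGIT, a log2 ratio of (CPM + 5) of 2.17, and in plasma cells 195 and 48.0 CPM, a ratio of 1.91. In CD4, CD8 and other T cells the ratio lay between 1.08 and 1.17, in cDC1, cDC2, microglia and OPCs between 0.80 and 0.86, in oligodendrocytes 0.40, in border macrophages 0.31 and in fibroblasts 0.03. It was at least 1.5-fold higher in anti-PD-1 in 9 of the 12 classes, more than any other member, and Rps28 came next with 7. In the other direction Rpl5 was at least 1.5-fold lower in 10 classes and Rps15 in 9.

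The level of Rps2 differed between cells of 1 class, as did that of other members. In the anti-PD-1 library, among 693 CD8 T cells of 4000 UMIs or more, 153 had no Rps2 UMI and 171 had 10 or more. In anti-TIGIT 56 of 165 had none and 13 had 10 or more. Depth was not equalised in these counts. With cells thinned to 2000 UMIs, the spread (variance over mean) of Rps2 ranked 3 of 79 members in CD8 T cells of both libraries. It was 2.98 and 3.19 there, against member medians of 1.75 and 1.87. In microglia it ranked 40 of 78 (anti-PD-1) and 20 of 79 (anti-TIGIT), at 1.80 and 1.95 against medians of 1.82 and 1.74. The pools held cells with Xist UMIs (23.3% and 19.9% of retained cells) and cells with UMIs of the Y-linked genes Ddx3y, Eif2s3y, Kdm5d or Uty (25.8% and 33.1%), which stand for female and male mice. This split was chosen after the data were seen. In the anti-PD-1 library Rps2 had 113 CPM in Xist-positive and 638 CPM in Y-positive cells of the 12 classes, a log2 ratio of -2.50 (-2.57 to -2.43). It was lower in Xist-positive cells in each of the 12 classes there, with ratios from -3.49 in cDC2 to -2.17 in other T cells.

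In the anti-TIGIT library the same comparison gave 177 and 214 CPM, a ratio of -0.27 (-0.37 to -0.18), and the sign was mixed over the 9 classes with at least 20 cells of each kind. No other of the 83 members compared this way had a ratio beyond 1 in either library, and the medians over these 83 members were 0.07 in anti-PD-1 and -0.22 in anti-TIGIT. With Xist-positive cells alone, Rps2 was lower in anti-PD-1 in the 5 classes where this was recomputed: CD8 T cells (-0.82), cDC1 (-1.57), cDC2 (-1.24), microglia (-1.20) and other T cells (-0.53), the opposite of the whole classes. Cells of 1 mouse share its genotype and the mice of a pool cannot be told apart, so sex, single mice and treatment cannot be told apart for this gene, and its near-identical genomic copies add to the uncertainty of its count.

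**Figure D5:**
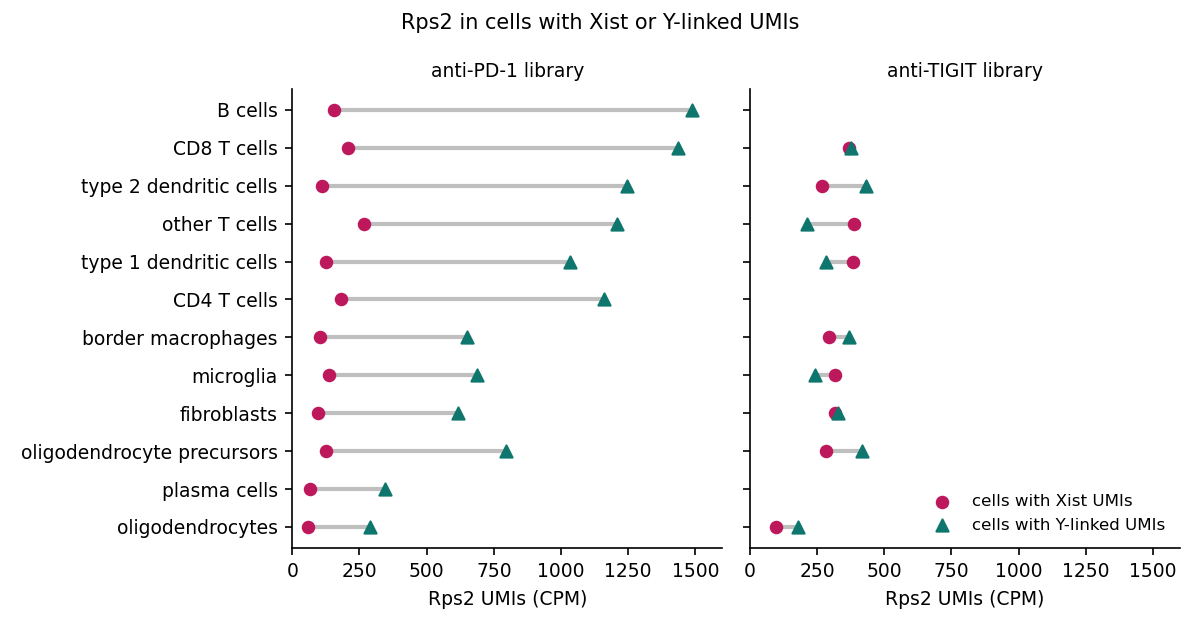
Rps2 level (x axis, CPM) in cells with Xist UMIs (circles) and in cells with Y-linked UMIs (triangles) of each class, by library; classes with under 20 cells of either kind are left out. In the anti-PD-1 library the circles lie between 57.4 and 268 CPM and the triangles between 290 and 1489 CPM, while in the anti-TIGIT library they overlap.

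Several members have a paralog that can take their place. Rpl22l1, which can replace Rpl22 in the ribosome, was highest in fibroblasts (1309 and 995 CPM) and CD8 T cells (1195 and 943 CPM) and lowest in plasma cells (101.6 and 79.98 CPM). Its ratio was above 0 in 11 classes, from 0.09 in cDC1 to 0.50 in microglia, and -0.29 in B cells; Rpl22 itself had 0.35 in B cells. Rps27l, a p53-responsive copy of Rps27, had 373 and 276 CPM in OPCs and 228 and 165 CPM in CD8 T cells, with ratios of 0.43 and 0.46. Rps27 itself had ratios of 0.87 and 0.31, above Rps27l in OPCs and below it in CD8 T cells.

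Rpl36al, a retrogene copy of Rpl36a, had 649 and 491 CPM over all cells against 903 and 759 for Rpl36a; reads of the 2 genes may be divided unevenly. Rps27rt, nearly identical to Rps27, had 20.5 and 14.4 CPM and its ratio of 1.10 in B cells rested on 42 and 13 UMIs. Rpl7l1, a nucleolar relative of Rpl7, had 36.4 and 32.3 CPM, and its ratio was 0.58 in other T cells (132 and 26 UMIs). Tissue-restricted copies had few UMIs: Rpl39l, known from testis, had 116 and 20 UMIs, of which 34 and 7 were in microglia and 16 and 1 in CD8 T cells, and Rpl3l, the heart and muscle form of Rpl3, had 27 and 16. Of the main forms, Rps4x had ratios of 0.80 in OPCs and 0.34 in oligodendrocytes, Rpl3 0.61 and Rpl7 0.50 in OPCs, and Rpl10 was below 0 in all 12 classes, from -0.58 in cDC1 to -0.09 in OPCs.

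Rps19bp1, the member that is not a ribosomal protein, had 30.3 and 25.8 CPM over all cells. Its ratio was 0.68 in CD8 T cells (205 and 39 UMIs) and 0.73 in border macrophages (28 and 42 UMIs), and it was the second highest and highest of the family there.

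Other parts of the translation machinery were followed with fixed lists. Of 20 further TOP mRNAs and translation factors, 4 were higher in OPCs at 1.5-fold (8.96% of all genes) and none lower (13.6%), with a median of 0.41. Of these, Vim had 245 and 43.1 CPM, Fau 1505 and 863 and Eef1a1 3918 and 2512. In microglia none was higher (4.16% of all genes) and 1 lower (11.9%), with a median of 0.15. In CD8 T cells none was higher (5.63%) and 1 lower (3.94%), with a median of -0.08, and in CD4 T cells none (6.26%) and 2 (4.11%), with a median of -0.12; these are counts of few genes, and 1 of 20 is near the share of all genes. Rack1, a scaffold of the small subunit, had ratios of -0.64 in CD8 T cells, -0.59 in CD4 T cells and 0.16 in OPCs, while Fau, whose product is a small subunit protein, was above 0 in all 12 classes, from 0.11 in other T cells to 0.80 in OPCs.

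Of 22 ribosome biogenesis genes, 20 were measured in OPCs, with 1 higher (8.96% of all genes), none lower (13.6%) and a median of 0.16. In microglia 20 were measured, with 1 higher (4.16% of all genes) and 1 lower (11.9%). Their median there was -0.17, near the -0.19 of all genes. In microglia, of 78 mitochondrial ribosome genes, all measured, none was higher (4.16% of all genes) and 1 lower (11.9%), with a median of 0.01. In OPCs all 78 were measured as well, and 6 were higher and 1 lower (median 0.09). Against 8.96% and 13.6% of all genes in OPCs, the 6 higher were near the background and the 1 lower was below it. Of 18 genes of mTOR and translation control, 17 were measured in OPCs, with 2 higher and 3 lower (median -0.15), counts near the same shares of all genes. Myc was the one with the largest ratio there, at 106.9 and 31.2 CPM (1.63), followed by Eif4e, the cap-binding factor, at 140.6 and 88.7 CPM (0.64). In microglia none of 17 was higher (4.16% of all genes) and 5 were lower (11.9%), with a median of -0.32 against -0.19 for all genes, Ddit4, an inhibitor of mTOR, at 38.1 and 104.3 CPM (-1.34) and Atf4 at 158.2 and 277.6 CPM (-0.79) being the lowest. In both classes the median of the ribosomal protein genes lay above those of all 4 of these lists.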

How the data were processed

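Single-cell 5′ RNA libraries, 1 per treatment, were analysed from the deposited UMI counts per gene and barcode. Per the file headers these were made with Cell Ranger 8.0.0 (anti-PD-1) and 8.0.1 (anti-TIGIT), and per the submitters' processing notes aligned to mm10; how reads shared by near-identical genes were counted is not given in the sources used here. Cells were kept from 200 detected genes upward and up to 10% mitochondrial UMIs; 584 and 147 doublets called by Scrublet (scanpy 1.11.5) were removed. A cell took the class with the largest share of its markers detected, given at least 3 markers and every other lineage below 75% of that share. Counts were summed per class and library. Shares have exact Clopper-Pearson intervals, and ratios exact conditional binomial intervals. Coding lengths come from GENCODE M21 and start windows from RefSeq GRCm38.p6. The ratio and interval functions were checked on simulated counts.

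The members and lists were chosen with earlier results of these data known. Named members were the 10 with most UMIs, the 8 with the widest range across classes in both libraries, the 2 highest and 2 lowest ratios of each class, the paralogs, the stalk proteins and Rps6; others were named after their values were seen. A few genes that the rule names are not reported here. Alternatives covered filters, gates, depth, pseudocounts, count minimums, scaling and cells of either sex.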

Additional observations from a re-analysis of the deposited data

Results flagged for a closer look

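The ribosomal protein share was lower in the anti-PD-1 library in CD4 T cells (log2 ratio -0.079) and in other T cells (-0.098), while it was higher in 9 other classes. With 1 library per treatment the difference between classes was not tested. Markers of regulatory T cells and plasma cells were higher in anti-PD-1 in both classes (2018 against 1264 and 954 against 242 CPM in CD4 T cells, 2191 against 1091 and 854 against 222 CPM in other T cells), and their part in the ratios was not tested.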

How the results depend on the processing

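Across 129 recomputed share ratios of the 12 classes, 126 kept their direction, 1 that did not being CD8 T cells, whose interval holds 0. The ratio turned in cDC1 with cells of 2000 to 8000 UMIs (-0.047) and with Xist-positive cells (-0.0067); B, CD4 T and plasma cells had under 20 Xist-positive cells in a library and gave no value. Of 413 recomputed ratios of named members 407 kept their direction. Changes of pseudocount or count minimum cannot turn the sign of a ratio, so the agreement under those settings was fixed in advance. The 6 that turned were Rpl5 in OPCs with Y-linked UMIs (0.007) and Rps2 in Xist-positive cells of 5 classes. For Rps2 these were CD8 T cells -0.82, cDC1 -1.57, cDC2 -1.24, microglia -1.20 and other T cells -0.53. The number of members higher in OPCs was 1 as a share of the ribosomal protein UMIs, 22 in Xist-positive cells and 3 at 2-fold; in microglia it was 21 relative to the median of all genes, 1 as a share of the ribosomal protein UMIs, 7 in Xist-positive cells and 0 at 2-fold. The share of the ribosomal protein UMIs removes a shift of the whole family by construction, and the cause was not tested for the Xist-positive cells. For these settings the share of all genes that passed was not computed. The log2 ratio of the share in CD8 T cells over oligodendrocytes (2.58 and 2.79, anti-PD-1 and anti-TIGIT) was 2.42 and 2.71 by the median cell, 2.57 and 2.79 without mitochondrial and immunoglobulin UMIs, 2.23 and 2.70 in thinned cells, 2.46 and 2.71 with doublets kept, 2.59 and 2.79 under the stricter filter, 2.57 and 2.78 with gates of 2 markers, 2.59 and 2.81 with gates of 4, and 2.43 and 2.76 with cells of 2000 to 8000 UMIs. Of 31 share ratios in parts of a class, added after seeing the data, 25 kept their direction, and the other 6 were in CD8 T cells (0.006 to 0.10, among them 0.04 with and 0.10 without Pdcd1), whose whole ratio has an interval that holds 0. No paired analysis was possible because there is 1 library per treatment. Depth limits Rpl3l, Rpl39l and Rps27rt, and Rps19bp1 and Rpl7l1 in small classes.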
